A study of Mus musculus with 4 samples.

Results

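The GATA transcription factors *Gata1*, *Gata2*, *Gata3*, *Gata4*, *Gata5* and *Gata6* were measured in a dorsal and a ventral part of the mouse tracheoesophageal anlage. They were found as the probe sets whose single gene symbol in the array's annotation is one of these names, which gave 11 probe sets of 34958 with a single symbol and 6 genes of 18194. The anlage is the foregut tube before it separates into esophagus and respiratory organs. It was taken from BALB/c embryos at E9.75 between the end of the pharynx and the end of the lung bud swelling, and it was divided by hand under the microscope. Each part was measured on 2 Affymetrix arrays, which the labels call biological replicates, and no allele, agent or sorting of cells is given for either part. Both parts hold epithelium, mesenchyme, vessels and blood together, so fewer cells of a type and less RNA per cell cannot be told apart. No source states which litters or pools the replicates came from. The p-values therefore cover the spread of these 4 arrays alone, and their number limits the precision.

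GATA factors bind DNA through a pair of zinc fingers that recognise the core sequence GATA. The family is commonly divided by the tissues that depend on it. *Gata1*, *Gata2* and *Gata3* are best known from blood cells, with *Gata2* also in endothelium and *Gata3* also in sympathetic neurons, the pharyngeal pouches and the ear. *Gata4*, *Gata5* and *Gata6* act in the heart, in the gut endoderm and in the mesoderm next to both, where they work with homeobox and T-box factors.

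Promoters are shown because the members are themselves DNA-binding factors with a GATA core as their site. They are those of the member with the largest difference (*Gata5*) and of the member with a value higher in the dorsal part (*Gata1*). The third is that of the member with the only match to a GATA hexamer among the windows searched (*Gata3*). Each runs 5′ to 3′ from 250 bases before to 50 bases after the start of transcription in RefSeq, build GRCm38.p6, and capitals mark a match to the hexamer AGATAA, the hexamer AGATAG, the hexamer TGATAA or the hexamer TGATAG on either strand.
Gata5, chr2:180334630-180334929, minus strand: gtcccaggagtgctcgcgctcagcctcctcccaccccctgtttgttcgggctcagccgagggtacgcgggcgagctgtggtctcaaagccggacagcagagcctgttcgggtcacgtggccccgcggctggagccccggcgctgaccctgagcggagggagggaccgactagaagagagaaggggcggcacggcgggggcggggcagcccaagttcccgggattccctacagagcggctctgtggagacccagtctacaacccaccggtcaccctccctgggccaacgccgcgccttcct
Gata3, chr2:9878551-9878850, minus strand: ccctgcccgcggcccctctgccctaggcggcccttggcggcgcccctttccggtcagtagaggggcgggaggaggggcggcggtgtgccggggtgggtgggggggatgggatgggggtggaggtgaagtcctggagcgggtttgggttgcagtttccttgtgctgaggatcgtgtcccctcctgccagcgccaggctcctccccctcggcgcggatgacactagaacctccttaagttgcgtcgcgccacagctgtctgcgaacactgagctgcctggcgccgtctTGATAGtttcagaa
Gata1, chrX:7967861-7968160, minus strand: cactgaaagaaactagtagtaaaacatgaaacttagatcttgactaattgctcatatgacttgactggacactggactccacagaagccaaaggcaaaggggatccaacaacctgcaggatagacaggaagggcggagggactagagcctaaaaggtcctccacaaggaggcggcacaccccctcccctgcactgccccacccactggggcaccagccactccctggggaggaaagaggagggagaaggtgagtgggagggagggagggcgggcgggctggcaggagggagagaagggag
Windows were searched for 4 of the members, *Gata1*, *Gata2*, *Gata3* and *Gata5*, and there were 5 windows in all. No window of *Gata4* or *Gata6* was searched, so the counts do not cover these members. One of these hexamers was found in 1 of the 5 windows, TGATAG of *Gata3* at base 37 after the start, whereas 29.8% of all 32851 windows of the same length held at least 1. A match describes the letters of the window only, and its absence says nothing of the factors that bind there.

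*Gata4*, *Gata5* and *Gata6* were higher in the ventral part by 8.27-fold, 12.5-fold and 4.43-fold. *Gata2* and *Gata3* were also higher ventrally, but by 1.53-fold and 1.89-fold, while *Gata1* had its higher values dorsally, by 1.32-fold, and did not pass the test. Values are those of the robust multi-array average (RMA), read here as log2 from their range. The probe set with the highest mean was taken for each gene. Genes that exceeded the 40th percentile on 2 or more arrays were compared with limma, with Benjamini-Hochberg adjustment over 13139 genes, and a gene was called at an adjusted p under 0.05. By this test 5 of the 6 members were called, all ventrally, where 4.09% of all tested genes were called ventrally, 4.79% dorsally and 8.88% in either direction. Without dorsal replicate 2 it called 3, *Gata4*, *Gata5* and *Gata6*. The arrays of the parts did not overlap for any of the 6 members, but 50.9% of all tested genes had no overlap either. All 6 members and all 11 probe sets passed the filter on low values. Since 4 arrays allow no two-sided p under 0.333 in an exact permutation test, single members were tested only in the fit over all genes.

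**Figure D1:**
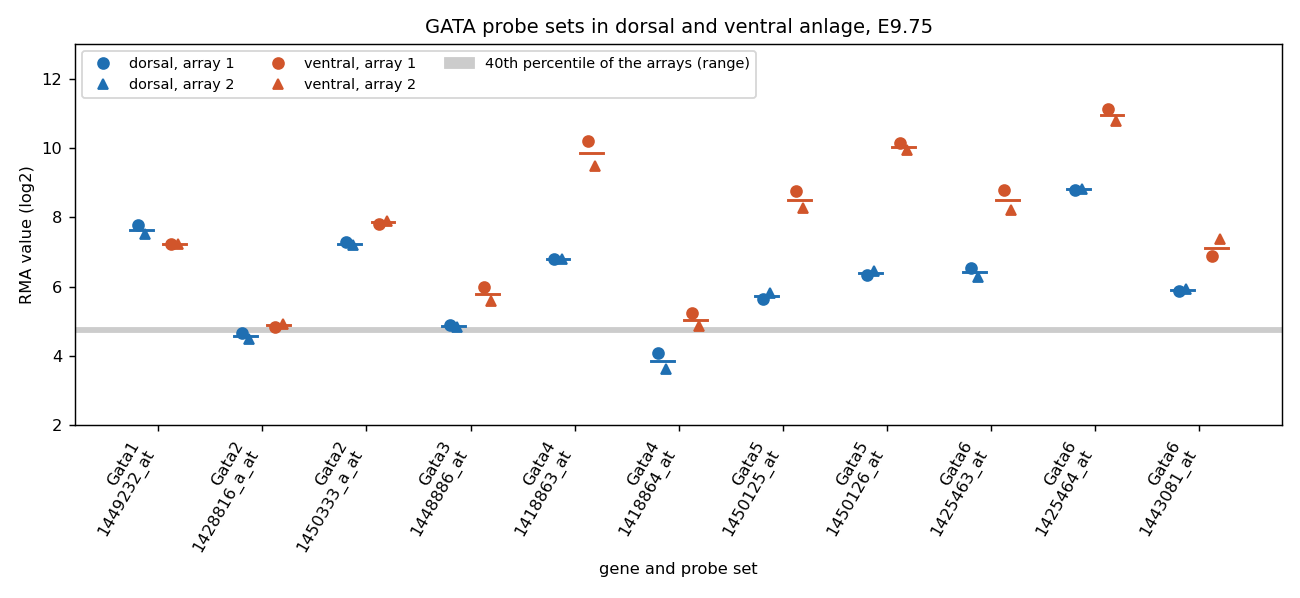
The 11 GATA probe sets at E9.75, plotted as RMA values (vertical axis, log2) for each array of either part, with 1 point per array, a bar at the mean of 2 arrays and a grey band over the 40th percentiles of the 4 arrays. The ventral points lie above the dorsal ones in every probe set except that of *Gata1*, and the distance is largest for *Gata5* and *Gata4*.

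*Gata5*, a factor of the endocardium and of gut endoderm, had the largest difference of the family. Its probe set 1450126_at read 6.33 and 6.46 dorsally and 10.14 and 9.94 ventrally. The dorsal values stood at percentiles 59.99 and 61.4 of their arrays and the ventral values at 90.4 and 90.6, with no overlap. The log2 difference, dorsal minus ventral, was -3.64 (limma, standard error 0.17, n = 2 per part, adjusted p = 7.74e-13), the 21st lowest of the 13139 genes. With quantile normalization once more the adjusted p from limma was 0.000391. The other probe set, 1450125_at, read 5.64 and 5.83 dorsally and 8.75 and 8.28 ventrally, and it differed by -2.78. Both probe sets thus placed *Gata5* higher in the ventral part, by values that differed from each other by more than the standard error of either.

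*Gata4*, which encodes a factor needed for the ventral closure of the heart and foregut, followed. At 1418863_at the dorsal arrays gave 6.80 on each and the ventral arrays 10.21 and 9.48. The ventral arrays stood 0.72 apart while the dorsal arrays agreed to 0.002, a pattern that was not particular to this gene. Over all tested genes the median distance between replicates was 0.26 ventrally and 0.08 dorsally, and the upper quartile of ventral replicate 2 was 7.75, below those of the other 3 arrays. The log2 difference of *Gata4* was -3.05 (limma, standard error 0.20, n = 2 per part, adjusted p = 2.17e-10). With quantile normalization once more the adjusted p from limma was 0.00176. The second probe set, 1418864_at, was low, with 4.09 and 3.62 dorsally and 5.24 and 4.87 ventrally. Both dorsal values lay below the 40th percentile of their arrays, and the ventral values stood at percentiles 47.6 and 40.8. The difference there was -1.20, and against the mean of the dorsal 40th percentiles it was -0.33, so the size given by this probe set is limited by its low level.

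*Gata6*, a factor of lung and gut endoderm and of heart mesoderm, was called with the third largest difference of the family. The probe set 1425464_at read 8.79 and 8.81 dorsally, at percentiles 81.5 and 81.7 of the arrays, and 11.13 and 10.77 ventrally. The log2 difference was -2.15 (limma, standard error 0.18, n = 2 per part, adjusted p = 8.33e-09), and the parts did not overlap. With quantile normalization once more the adjusted p from limma was 0.000950. A second probe set, 1425463_at, read 6.55 and 6.28 dorsally and 8.78 and 8.23 ventrally, a difference of -2.09 that is within the standard error of the first. The third, 1443081_at, gave 5.87 and 5.95 dorsally and 6.88 and 7.37 ventrally, a difference of -1.22. All 3 probe sets were called ventrally, the third with the smallest difference.

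*Gata3*, a factor of T cells, sympathetic neurons and the pharyngeal pouches, was measured by 1 probe set near the low end of the arrays. It read 4.89 and 4.85 dorsally, at percentiles 42.5 and 41.9, and 5.99 and 5.60 ventrally, at percentiles 56.6 and 51.9. The groups did not overlap, and the log2 difference was -0.92 (limma, standard error 0.18, n = 2 per part, adjusted p = 0.000940). Without dorsal replicate 2 it was not called (-0.90, adjusted p = 0.0624), and over the alternatives its adjusted p ran from 5.57e-06 to 0.0624.

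*Gata2*, which acts in blood progenitors and endothelium, read 7.28 and 7.21 dorsally and 7.82 and 7.89 ventrally at 1450333_a_at. Replicates differed by 0.07 in each part, and the log2 difference was -0.61 (limma, standard error 0.17, n = 2 per part, adjusted p = 0.0213). The other probe set, 1428816_a_at, read 4.66 and 4.50 dorsally, below the 40th percentile of both arrays, and 4.85 and 4.93 ventrally, a difference of -0.31. The call of *Gata2* was lost with quantile normalization once more (adjusted p = 0.0522), with the mean of both probe sets (-0.46, adjusted p = 0.0839), without dorsal replicate 1 (adjusted p = 0.437) and without dorsal replicate 2 (adjusted p = 0.620), within a range of 0.00600 to 0.620 among the settings tried.

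*Gata1*, the factor that drives red cell and megakaryocyte maturation, was the single member with higher values dorsally. Its probe set read 7.77 and 7.51 dorsally and 7.24 and 7.23 ventrally. The dorsal arrays stood 0.26 apart, which is close to the gap of 0.27 between the lower dorsal and the higher ventral value. The log2 difference was 0.40 (limma, standard error 0.17, n = 2 per part, adjusted p = 0.193), with a 95% interval of 0.04 to 0.76 before any adjustment. *Gata1* was not called under any of the 13 alternatives run for the differences, with adjusted p from 0.0671 to 0.9997.

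Every probe set was also compared in a fit over all 23336 single-symbol probe sets that passed the same filter. Here 8 of the 11 GATA probe sets were called, all ventrally, where 2.56% of all tested probe sets were called ventrally, 3.28% dorsally and 5.84% in either direction. The arrays of the parts did not overlap for any of the 11, as for 48.2% of all tested probe sets. The called ones were the 2 of *Gata4*, the 2 of *Gata5*, the 3 of *Gata6* and that of *Gata3*. Of these 1418864_at of *Gata4* passed the filter only through its ventral arrays, so its direction was largely fixed by the filter. The same holds for 1428816_a_at of *Gata2*, which was not called. The probe sets of a gene share its transcript and are not replicates of one another. *Gata2* at 1450333_a_at just missed the threshold in this fit (adjusted p = 0.0537 from limma), which adjusts over more features than the fit by gene. It was called with a filter at the 60th percentile (adjusted p = 0.0305), without ventral replicate 1 (adjusted p = 0.0202) and without ventral replicate 2 (adjusted p = 0.0457), within 0.0138 to 0.872 over the alternatives. The other probe set of *Gata2*, 1428816_a_at (adjusted p = 0.406), and the probe set of *Gata1* (adjusted p = 0.271) were not called. With quantile normalization once more 1418864_at of *Gata4* (adjusted p = 0.0777, within 5.17e-09 to 0.0871) and 1443081_at of *Gata6* (adjusted p = 0.0680, within 2.60e-09 to 0.0680) were lost. Without dorsal replicate 2, 1418864_at (adjusted p = 0.0871) and *Gata3* (adjusted p = 0.143, within 2.06e-05 to 0.143) were lost, and *Gata3* was also lost without dorsal replicate 1 (adjusted p = 0.103).

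**Figure D2:**
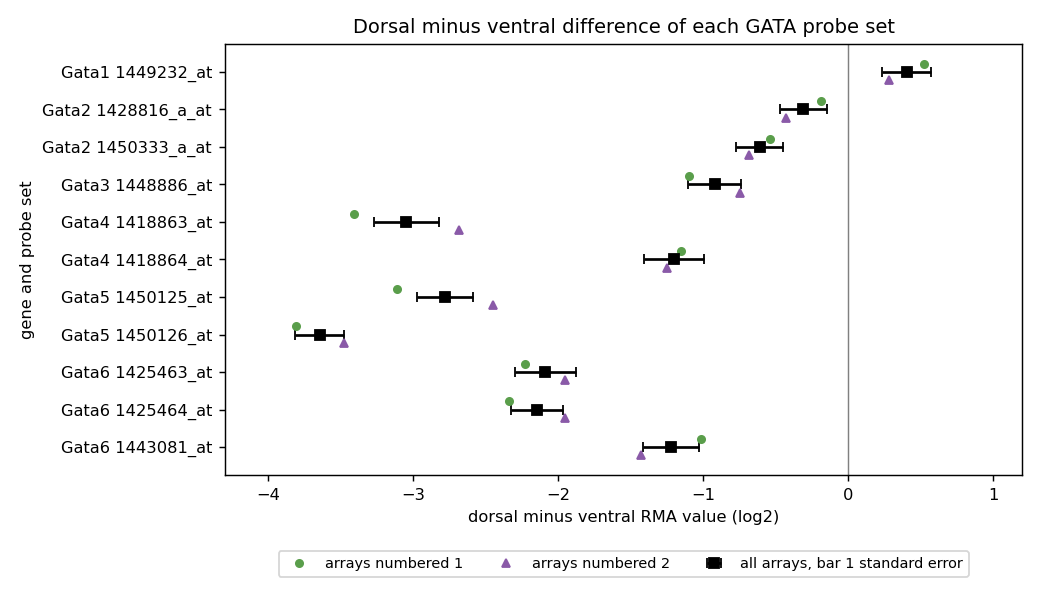
The 11 GATA probe sets by their dorsal minus ventral RMA value (horizontal axis, log2), as the difference over all arrays with a bar of 1 standard error and as the differences within the arrays of each replicate number. Probe sets of *Gata4*, *Gata5* and *Gata6* lie between -3.64 and -1.20, those of *Gata2* and *Gata3* between -0.92 and -0.31, and that of *Gata1* at 0.40.

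The comparison of *Gata4*, *Gata5* and *Gata6* with *Gata1*, *Gata2* and *Gata3* separated the family. The mean log2 difference between the parts was -2.95 for the former and -0.38 for the latter, a gap of -2.57. Taken within the arrays numbered 1 the means were -3.19 and -0.37, and within those numbered 2 they were -2.71 and -0.39. At the probe set taken for each gene, the single values within a number did not overlap between the subfamilies. Within the arrays numbered 2 *Gata6* had the smallest difference of its subfamily, -1.95, and *Gata3* had the largest of the other, -0.75. Within the arrays numbered 1 these were -2.34 and -1.10. Over all probe sets they did overlap there, with 1443081_at of *Gata6* at -1.01. No p is given for this contrast, since the members were chosen with earlier results of these data known. With all probe sets of a gene averaged the gap was -2.06, and without *Gata3* it was -2.84.

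An opposite-strand transcript of the *Gata5* locus, *Gata5os*, is represented by 1 probe set. It read 4.14 and 3.83 dorsally and 4.39 and 5.33 ventrally, above the 40th percentile on 1 array, and was not tested. Whether its reading is distinct from that of *Gata5* was not examined.

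GATA factors work in complexes, and 4 of 11 cofactor genes were called ventrally and none dorsally. The shares over all tested genes were 4.09% and 4.79%. The median log2 difference of the cofactor genes was -0.27, beside 0.07 over all tested genes. *Zfpm2*, whose product FOG2 binds GATA4 in the heart, read 7.11 and 6.98 dorsally and 10.30 and 10.02 ventrally. Its log2 difference of -3.11 (limma, standard error 0.17, n = 2 per part, adjusted p = 1.45e-11) was close to that of *Gata4*. *Zfpm1*, whose product FOG1 is the partner of GATA1 in blood, differed by -1.002, and the corepressor gene *Cbfa2t3* by -1.05. *Lmo2*, which bridges GATA factors to their partners in blood and endothelium, differed by -0.73 and was not called without dorsal replicate 1 (-0.80, adjusted p = 0.152) or dorsal replicate 2 (-0.67, adjusted p = 0.385, the highest over its alternatives, with 0.000622 the lowest). The other 7, *Ldb1*, *Tal1*, *Lyl1*, *Tcf3*, *Runx1*, *Gfi1b* and *Spi1*, ran from -0.57 to 0.53 and were not called. Without ventral replicate 1, 6 cofactor genes were called ventrally and 3 dorsally, but 4544 of all genes were then called dorsally and 1593 ventrally.

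Genes of other proteins with a GATA-type zinc finger, such as *Gatad2a* and *Rere*, gave no calls. None of 9 was called, where 8.88% of all tested genes were, a share at which a list this short may hold no call. Their log2 differences ran from -0.23 to 0.30, with a median of -0.05. *Gatad2a*, a gene of a chromatin remodelling complex, read 10.68 and 10.75 dorsally and 10.57 and 10.52 ventrally. *Rere*, a corepressor gene, differed by 0.05, and its arrays overlapped. With limma 0 of the 9 had an unadjusted p under 0.05. Without 1 array each *Gatad2a* ran from 0.14 to 0.21 and *Rere* from -0.082 to 0.18. This list did hold calls in some fits without 1 array. Such a fit leaves a single array in a part, and these calls are not read.

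Of factors known to act with GATA4, GATA5 and GATA6 in the heart, 8 of 10 were called ventrally and none dorsally. The shares over all tested genes were 4.09% and 4.79%, and the median of the list was -1.55. *Tbx20*, a T-box gene, read 5.56 and 5.34 dorsally and 10.18 and 10.10 ventrally, so that the log2 difference was -4.68. *Myocd*, the coactivator gene of smooth and cardiac muscle, differed by -4.52, *Nkx2-5*, a homeobox gene of heart progenitors, by -2.90, *Hand2* by -2.23 and *Isl1*, a gene of the second heart field, by -1.66 (adjusted p from 1.84e-14 to 2.26e-07 from limma). *Tbx5*, *Mef2c* and *Smarcd3* were called as well, whereas *Srf* (0.07) and *Hand1* (-0.38) were not. With all probe sets of a gene averaged the differences of *Tbx20* (-2.70), *Myocd* (-2.83) and *Hand2* (-1.03) were smaller, and all remained called.

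Heart muscle genes differed in the same direction. Of 12 tested genes 11 were called ventrally and none dorsally, beside 4.09% and 4.79% of all tested genes. The median was -2.56, and *Nppa* and *Myl2* did not pass the filter. *Myh6* and *Ryr2* passed it only through their ventral arrays, so their direction was largely fixed by the filter. Without either dorsal array 8 were called. The myosin gene *Myh6* read 3.87 and 3.93 dorsally, below the 40th percentile of both arrays, and 10.07 and 10.05 ventrally. *Tnnt2*, *Myl4*, *Tnnc1* and *Myl7*, genes of the contractile apparatus, differed by -5.34, -5.03, -4.04 and -3.57. The summed linear values of the list ran from 2320 to 2393 on the dorsal arrays and from 15070 to 19574 on the ventral arrays. The ventral part thus carried heart muscle RNA together with *Gata4*, *Gata5* and *Gata6*, and its part in their difference was not tested. With all probe sets of a gene averaged *Myh6* was at -3.14 and *Myl4* at -2.57, and without probe sets that match several transcripts *Tnnt2* was at -0.76 (adjusted p = 0.00236 from limma, the highest over its alternatives).

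Among 12 tested partners and targets of GATA factors in the endoderm, 5 were called ventrally and 2 dorsally. The shares over all tested genes were 4.09% and 4.79%, and the median of the list was -0.38. *Afp*, a gene of early liver and yolk sac, read 6.42 and 6.55 dorsally and 10.02 and 9.94 ventrally, so that the log2 difference was -3.50. *Shh*, the hedgehog ligand of gut epithelium, differed by -2.66, *Ttr*, a plasma protein gene, by -2.08, and *Hhex*, a homeobox gene of ventral foregut, by -1.10 (adjusted p from 1.15e-12 to 0.000103 from limma). *Foxa1* was also higher ventrally, by -0.63. In the opposite direction, *Sox17*, a gene of endoderm and endothelium, differed by 0.98 and *Sox2*, a gene of the dorsal foregut epithelium, by 0.57. *Foxa2*, *Foxa3*, *Hnf4a*, *Nkx2-1* and *Onecut1* were not called, and *Alb* and *Prox1* did not pass the filter. *Foxa1* (adjusted p from 0.00120 to 0.670 over the alternatives) and *Sox2* (adjusted p from 0.0116 to 0.684) were lost without either dorsal array, and *Sox2* also with quantile normalization once more and with no filter. *Nkx2-1*, the marker of respiratory endoderm, read 5.10 and 5.03 dorsally and 5.09 and 5.25 ventrally, below the median of every array. With all probe sets averaged *Afp* was at -2.09.

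Mesothelium and septum transversum, other sites where *Gata4* is expressed, did not share its direction as a group. Of 8 tested genes 4 were called dorsally and 2 ventrally, beside 4.79% and 4.09% of all tested genes. The median of the list was 0.41. *Bnc1*, a zinc finger gene of mesothelium, read 8.83 and 8.64 dorsally and 5.49 and 4.79 ventrally, so that the log2 difference was 3.60. *Wt1*, a regulator of mesothelium, differed by 2.96, *Upk3b* by 2.56 and *Aldh1a2*, which encodes an enzyme of retinoic acid synthesis, by 0.996. *Lhx9*, a LIM homeobox gene, and *Tcf21*, a bHLH gene, were higher ventrally, by -2.13 and -0.71. *Wt1* on the ventral arrays and *Lhx9* on the dorsal ones lay below the 40th percentile, so each passed the filter only through the other part. *Msln* and *Lhx2* did not pass the filter. *Tcf21* was lost with no filter, with quantile normalization once more, without either dorsal array and without ventral replicate 1, where it was at -0.35 (adjusted p from 0.00108 to 0.732 over the alternatives).

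Red blood cell genes, many of them targets of GATA1, had higher values in the dorsal part, as *Gata1* did. Of 10 tested genes 7 were called dorsally and none ventrally, beside 4.79% and 4.09% of all tested genes. The median of the list was 0.93. The anion exchanger gene *Slc4a1* read 8.78 and 8.98 dorsally and 7.77 and 7.39 ventrally, so that the log2 difference was 1.30 (limma, standard error 0.18, n = 2 per part, adjusted p = 1.71e-05). *Alas2*, the erythroid heme synthesis gene, differed by 1.19, *Klf1*, a regulator of globin genes, by 1.06, the embryonic globin gene *Hba-x* by 1.04 and *Nfe2* by 0.94. *Hemgn* and *Ermap* were called too. The embryonic globins *Hbb-bh1* and *Hbb-y*, at 13.84 or above on every array, differed by 0.52 and 0.26 and *Epor*, the erythropoietin receptor gene, by -0.27, and none of these was called. The summed linear values of the list ran from 56102 to 56228 on the dorsal arrays and from 36785 to 44869 on the ventral arrays, and the part of blood content in the values of *Gata1* was not tested. With quantile normalization once more 4 of the 10 were called and without dorsal replicate 1, 3 were. *Hba-x* (adjusted p from 1.19e-07 to 0.0880) and *Nfe2* (adjusted p from 3.10e-06 to 0.192) were lost in both cases and without ventral replicate 2, where *Hba-x* was at 0.64, and *Slc4a1* was at 0.79 with all probe sets averaged. *Ermap* was lost with quantile normalization once more and without either dorsal array, and *Hemgn* without dorsal replicate 1.

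Other cell types in which *Gata1* and *Gata2* act gave no calls. None of 11 endothelial genes was called, with a median of -0.07 and log2 differences from -0.42 to 0.42. Of all tested genes 8.88% were called, a share at which lists this short may hold no call. *Kdr*, a receptor gene of early endothelium, read 9.84 and 9.87 dorsally and 10.38 and 10.16 ventrally, and *Plvap* differed by 0.11. With limma 1 of the 11 had an unadjusted p under 0.05. *Kdr* was called ventrally with quantile normalization once more (-0.53, adjusted p = 0.0235 from limma), and without 1 array each it ran from -0.52 to -0.31. Both this list and the next did hold calls in some fits without 1 array. Such a fit leaves a single array in a part, and these calls are not read. None of 5 tested megakaryocyte and mast cell genes was called either, with *Pf4* at 0.0027 and *Itga2b* at -0.20. With limma 1 of them had an unadjusted p under 0.05, and 1 was called ventrally with the replicate number as a block.

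For *Gata3* the arrays held genes of the neurons and of the pharynx in which it is known. Of 5 tested genes of sympathetic and enteric neurons, *Ret* (4.79), *Insm1* (3.25) and *Stmn2* (0.60) were called dorsally, opposite to *Gata3*. *Th* and *Dbh* were not called, and the share called dorsally over all tested genes was 4.79%. *Stmn2* was lost without either dorsal array, with adjusted p from 0.00913 to 0.596 over the alternatives, and *Ret* was at 2.60 with all probe sets averaged. Without either dorsal array 1 gene of the 4 then tested was called, since *Insm1* did not pass the filter there. Its ventral values, 3.24 and 3.65, lay below the 40th percentile, so it passed the filter only through its dorsal arrays. Of 5 tested pharyngeal genes, *Tbx1* (1.45) and *Eya1* (0.96) were called dorsally and none ventrally, beside 4.79% and 4.09% of all tested genes. *Eya1* was lost with all probe sets averaged (0.38, adjusted p = 0.157) and without dorsal replicate 2 (adjusted p = 0.0509), within 2.14e-06 to 0.157, which left 1 gene of the list called in either case.

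**Figure D3:**
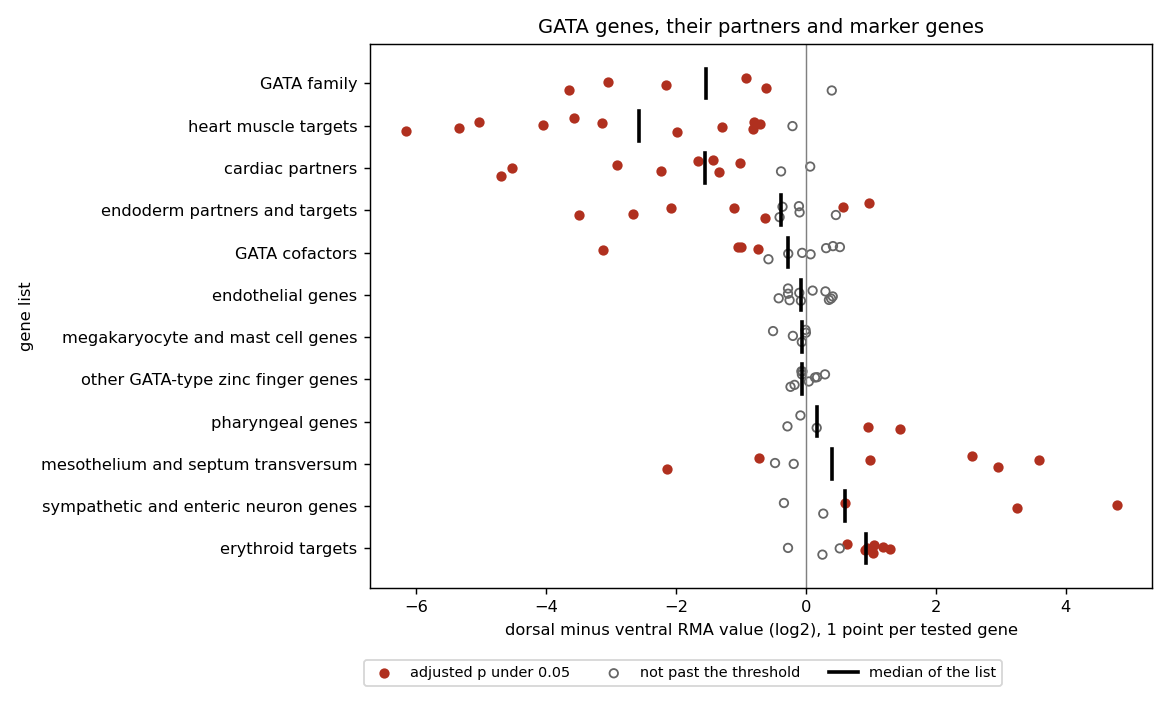
Dorsal minus ventral RMA value (horizontal axis, log2) for the 6 GATA genes and for each tested gene of 11 lists of partners, targets and marker genes, with 1 point per gene, filled where the adjusted p was under 0.05, and a black bar for each list's median. The median is -2.56 for heart muscle and 0.93 for red blood cells, and the lists of endothelium, megakaryocytes and other GATA-type zinc fingers hold no filled point.

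Over all lists 48 of 98 tested genes were called, 30 ventrally and 18 dorsally, or 49.0% beside 8.88% of all tested genes. The lists were chosen with earlier results of these arrays known, so this share is a description of the lists.

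The genes whose 4 array values, each less the gene's own mean, lay nearest to those of a called member were found by Euclidean distance over 13139 genes. Nearest to *Gata4* were *Rbm20* (distance 0.11), *Ryr2* (0.26) and *Phlda2* (0.29), the former pair being genes of heart muscle. Nearest to *Gata5* were *Ppp1r17* (0.09), *Afp* (0.17) and *Colec10* (0.22), and nearest to *Gata6* were *Hand2* (0.09), *Ttr* (0.12) and *Synpo2* (0.14). For *Gata3* they were *Rbm46* (0.03), *Pgf* (0.06) and *Smad7* (0.06), and for *Gata2* they were *Rasal1* (0.03), *Rps6kl1* (0.05) and *Pantr1* (0.05). These distances are on the log2 scale over 4 arrays only, so many genes with a like difference between the parts lie close to a member.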

How the data were processed

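Gene expression was measured on 2 dorsal and 2 ventral samples of the tracheoesophageal anlage. Each array took biotin-labelled cRNA from 100 ng of RNA. The authors summarised the arrays by RMA, and the deposited values, from 2.36 to 15.02, are read here as log2. The software that ran RMA was not given in the sources used here. Gene symbols came from the platform annotation, and 34754 of the 34958 single-symbol probe sets had an identifier in the RefSeq table of GRCm38.p6, with 0 symbols changed. Tests were two-sided and used limma 3.58.1 (lmFit, eBayes) under R 4.3.3, without a term for the replicate number. They were checked on simulated data with the same spread in both parts. The median distance between replicates was 0.08 dorsally and 0.26 ventrally, a difference that this check does not cover. The members, gene lists and rule for named genes (all members, up to 5 called genes of each list with the largest difference or else the 2 of highest mean, and the 3 nearest genes of each called member) were chosen with earlier results of these data known. Other list members were named after their values were seen. The alternatives are given in the closing section, and differences within each replicate number, against the 40th percentile and without *Gata3* were added after the data were seen.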

Additional observations from a re-analysis of the deposited data

How the results depend on the processing

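The 15 alternatives changed the threshold (0.01 or 0.10), the variance model (eBayes with trend or robust), the replicate block, the scaling (quantile normalization or equal medians), the probe sets (averaged, or none matching several transcripts), the filter on low values (none, or at the 60th percentile) or the arrays, each of the 4 left out in turn. Under them *Gata4*, *Gata5* and *Gata6* stayed called ventrally wherever they were tested, and 3 to 5 of the 6 GATA genes were called without 1 array each, with 3 without dorsal replicate 2. Counts of GATA probe sets called ran from 6 to 8 without 1 array each, and 9 were called with the replicate block or at an adjusted p under 0.10. The labels give no shared litter or batch to the replicate numbers, and the deviations of same-numbered arrays correlated at 0.14 over genes. With the replicate number as a block the count of GATA genes called was 5, that of partner and target genes 52, and *Gata2* at 1450333_a_at was called (adjusted p = 0.0138), as was 1 megakaryocyte and mast cell gene, ventrally. The gap between the subfamilies moved to -2.06 when all probe sets of each gene were averaged, ran from -2.73 to -2.41 without 1 array each, and could not be computed without probe sets that match several transcripts, since both of *Gata2* are of that kind. With a filter at the 60th percentile *Gata3* was not tested. Partner and target genes called ran from 34 (35.8%, beside 4.05% of all genes, without dorsal replicate 1) to 66 (70.2%, beside 47.4%, without ventral replicate 1), and counts of single lists moved over 1.5 times in 14 of 165 cases. With quantile normalization once more *Rere* was at -0.059, *Pf4* at -0.10 and *Plvap* at -0.012, and with equal array medians *Pf4* was at -0.0029, all opposite to their sign in the report and not called. Without 1 array each, *Rere* ran from -0.082 to 0.18, *Pf4* from -0.10 to 0.11 and *Plvap* from -0.011 to 0.22. The cause of these changes was not tested.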
